A study of Mus musculus with 8 samples.

Results

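D cyclins, their kinases CDK4 and CDK6, the inhibitors of these kinases and the retinoblastoma protein set the G1 brake of the cell cycle. RNA of 10 of their genes was followed here: Ccnd1, Ccnd2, Ccnd3, Cdk4, Cdk6, Cdkn1a, Cdkn1b, Cdkn2c, Cdkn2d and Rb1. They were taken by name, through the gene names of the authors' deposited table, as 10 of the 47937 gene IDs counted. The cells were a growing culture of pro-B cells of the mouse, an early stage of B-lymphocyte development, kept immortal by A-MuLV, the Abelson leukaemia virus. In all of them the endogenous EBF1, a transcription factor of the B lineage, had been replaced by a modified gene, EBF1-dTAG_N, whose protein carries a degradation tag, per the labels. Total RNA came from 4 libraries treated with 0.5 µM dTAG-13, a compound that sends tagged proteins to the proteasome, and from 4 libraries treated with its solvent DMSO. Both treatments lasted 6 h by the treatment label, while the titles give the DMSO libraries as 0 h. No cells without the tag were among the samples analysed here, so an effect of the compound itself and loss of EBF1 cannot be told apart, and RNA counts do not measure how much EBF1 protein remained.

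D cyclins bind CDK4 and CDK6, and the active kinases phosphorylate the retinoblastoma protein, which then releases E2F factors that drive genes of DNA replication. Inhibitors of the INK4 family (the products of Cdkn2a, Cdkn2b, Cdkn2c and Cdkn2d) bind CDK4 and CDK6, and those of the CIP/KIP family (p21 from Cdkn1a, p27 from Cdkn1b) bind cyclin-CDK complexes more widely. In developing mouse B cells, cyclin D3 is known for its part in the proliferation of pre-B cells, and in the Abelson setting the cells cycle under a viral tyrosine kinase.

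Exonic reads per library numbered between 28982316 and 38999496, and reads in introns made up between 20.4% and 27.3% of the reads over whole genes. The 10 markers of pro-B cells summed to between 2252 and 2387 CPM (exonic counts scaled to library size) in the dTAG-13 libraries and to between 2987 and 3054 CPM in the DMSO libraries. Of the defining T-cell markers 5 of 5 had no read in any library. Summed exonic CPM of 5 myeloid markers (1 of them at 0 throughout) lay between 0.485 and 1.12 against between 0.162 and 0.449, of 3 NK markers (2 at 0) between 0.381 and 0.727 against between 0.104 and 0.261, and of 4 erythroid markers (3 at 0) between 0.0272 and 0.182 against between 0.553 and 0.933, each in dTAG-13 against DMSO libraries. Stromal markers reached at most 0.272 CPM. What part these marker differences have in the results was not tested. Ebf1 RNA averaged 767 ± 38.5 exonic CPM in dTAG-13 and 623 ± 13.9 exonic CPM in DMSO libraries (SD, n = 4 each) and was called higher (log2 0.30), a call that was lost with whole-gene counts (log2 0.13, adjusted p = 0.363, edgeR). In bulk RNA, fewer cells of a type and less RNA per cell cannot be told apart.

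Promoter letters of 4 of these genes are shown as examples of each outcome: Ccnd3 fell, Cdkn2d and Cdk6 rose, and Cdk4 was not called. The stretches are the 250 bases before a RefSeq transcription start in GRCm38.p6, 5′ to 3′ on the gene's strand, at chr17:47504801-47505050 and chr17:47593217-47593466 for the upstream and the downstream start of Ccnd3, chr10:127063285-127063534 for Cdk4, chr5:3343643-3343892 for Cdk6, all on the + strand, and chr9:21291210-21291459 on the - strand for Cdkn2d. Capitals mark the letters CCCNNGGG, the centre of the palindrome that EBF1 prefers, and CACGTG, the E-box bound by MYC and related factors.
Ccnd3, upstream start: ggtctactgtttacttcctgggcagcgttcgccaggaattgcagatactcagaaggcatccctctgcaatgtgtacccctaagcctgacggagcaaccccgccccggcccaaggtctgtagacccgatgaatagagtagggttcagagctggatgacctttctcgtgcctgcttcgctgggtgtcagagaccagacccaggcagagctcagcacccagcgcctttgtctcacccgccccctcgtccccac
Ccnd3, downstream start: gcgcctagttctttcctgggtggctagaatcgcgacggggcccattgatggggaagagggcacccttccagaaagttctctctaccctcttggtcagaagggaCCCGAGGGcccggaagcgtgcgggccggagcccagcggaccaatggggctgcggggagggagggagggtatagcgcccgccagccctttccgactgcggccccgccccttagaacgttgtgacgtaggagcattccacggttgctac
Cdk4: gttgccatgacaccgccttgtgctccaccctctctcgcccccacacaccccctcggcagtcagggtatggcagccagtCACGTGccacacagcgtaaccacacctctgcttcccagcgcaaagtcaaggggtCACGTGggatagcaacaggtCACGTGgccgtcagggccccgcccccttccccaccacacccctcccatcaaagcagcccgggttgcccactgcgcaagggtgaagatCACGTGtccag
Cdk6: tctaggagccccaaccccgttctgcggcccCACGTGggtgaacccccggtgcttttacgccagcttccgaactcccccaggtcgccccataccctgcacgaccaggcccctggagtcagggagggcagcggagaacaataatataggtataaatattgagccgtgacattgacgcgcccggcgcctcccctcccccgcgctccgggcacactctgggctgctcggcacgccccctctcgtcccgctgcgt
Cdkn2d: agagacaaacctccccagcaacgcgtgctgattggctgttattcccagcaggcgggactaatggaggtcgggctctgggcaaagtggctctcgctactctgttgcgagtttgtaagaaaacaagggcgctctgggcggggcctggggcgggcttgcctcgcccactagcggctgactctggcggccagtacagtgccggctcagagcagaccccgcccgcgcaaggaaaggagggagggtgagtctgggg
Entries were found for 7 of the 10 genes, in 10 windows. None of the 10 windows held the longer palindrome, with a T before and an A after CCCNNGGG, which 0.779% of all 32851 such windows hold. CCCNNGGG itself occurred once, 147 bases before the downstream Ccnd3 start (position -147), and 11.8% of all windows hold it. CACGTG stood 4 times before Cdk4, at positions -172, -118, -98 and -11, and once before Cdk6 at -220. At least 1 CACGTG was found in 6.02% of windows, and 4 or more in 7 windows (0.0213%). The E2F site TTCCCGC, or its forms with GGC, CGC or GCC in place of the middle CCC, read on both strands, occurred once, before Cdkn2c at -25, and in 7.89% of windows. CCCNNGGG lies inside the longer palindrome, and both, like CACGTG, read the same on either strand. A match is a description of letters, and its absence says only that they are not in the window.

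Of the 10 genes, 9 had enough exonic reads to be tested, and 4 of these 9 (44.4%) passed an adjusted p of 0.05 in edgeR's quasi-likelihood test, beside 28.3% of all 12889 genes tested. Cdkn2d, Cdk6 and Rb1 rose, where 14.3% of all tested genes did, and Ccnd3 fell, where 14% of all tested genes did. The groups of 4 libraries did not overlap for these same 4 genes, as for 27.7% of all tested genes. The median log2 fold change was 0.03 over the 9 genes and -0.00 over all tested genes. The plot of exonic levels shows every library.

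**Figure D1:**
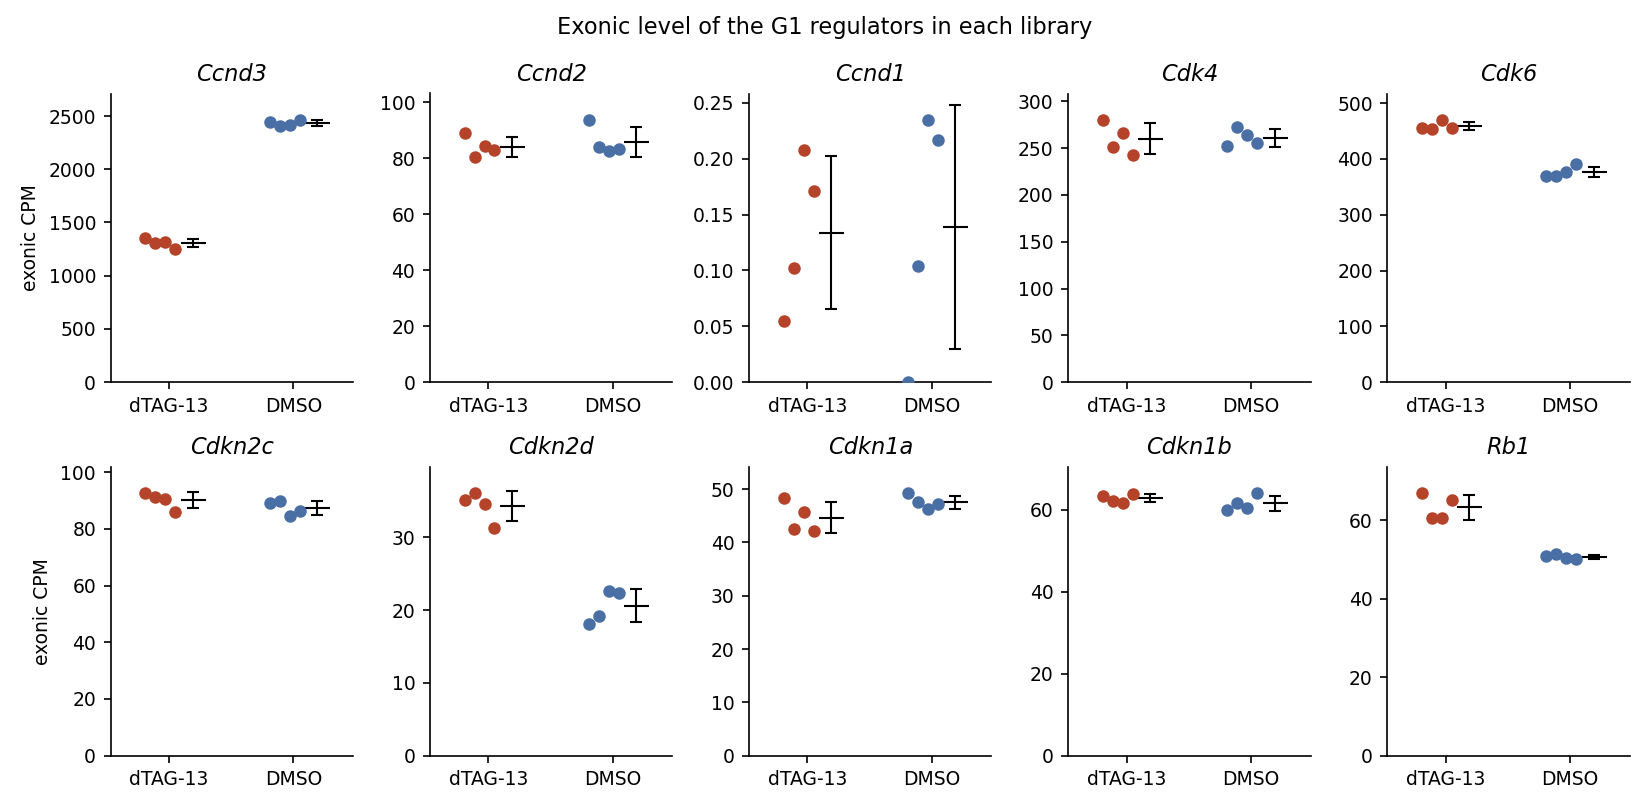
Exonic CPM of the 10 genes in each of the 4 dTAG-13 libraries (left in each panel) and 4 DMSO libraries (right), each panel on its own linear axis from 0, with the mean and SD beside the points. Ccnd3 lies between 1254 and 1353 CPM in dTAG-13 against 2406 to 2465 CPM in DMSO libraries, Cdk6, Cdkn2d and Rb1 are separate in the other direction, and the points of the other genes overlap.

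Ccnd3 carried nearly all D cyclin RNA of these cells, and it was the member that fell. Cyclin D3 RNA (Ccnd3, 17:47505051-47599691, + strand, GRCm38) stood at 1353, 1304, 1317 and 1254 exonic CPM in the dTAG-13 libraries, against 2440, 2406, 2412 and 2465 exonic CPM in the DMSO libraries. Every treated library was far below every control library, and the spread inside each group was small, with means of 1307 ± 41.3 CPM in dTAG-13 and 2431 ± 27.1 CPM in DMSO libraries (SD, n = 4 each). The log2 fold change was -0.90 ± 0.03 (SE), a level 1.86-fold lower, with an adjusted p of 2.58e-18 (edgeR). By size of fall it ranked 250 among the 12889 genes tested. Its 3′ end shares 361 bases with Bysl on the opposite strand, and Bysl RNA was 43.8 CPM in dTAG-13 and 46.7 CPM in DMSO libraries (log2 -0.09, adjusted p = 0.158, edgeR). Bysl introns were lower in the same comparison (log2 -0.31, adjusted p = 0.0382, edgeR), but that call was lost in 7 of 13 alternative settings. Among these were the fits without dTAG-13 replicate 1, 3 or 4 or DMSO replicate 2, 3 or 4, where the adjusted p reached 0.156. Counts per gene do not separate the transcripts of the 2 Ccnd3 starts.

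Cyclin D2 RNA (Ccnd2, 6:127125162-127152193, - strand), from the other D cyclin gene expressed here, stood at 88.9, 80.4, 84.3 and 82.8 exonic CPM in dTAG-13, against 93.8, 84.0, 82.6 and 83.2 exonic CPM in DMSO libraries. The groups overlapped, and the difference was smaller than the spread, with a log2 fold change of -0.03 (95% interval -0.12 to 0.06, adjusted p = 0.692, edgeR). The interval leaves room for a change between -8.09% and 4.43%, where Ccnd3 fell by 46.2%. Cyclin D1 (Ccnd1, 7:144929931-144939925, - strand) was at the limit of detection, with 2, 4, 8 and 6 exonic reads in dTAG-13 and 0, 3, 9 and 8 exonic reads in DMSO libraries, 20 in each group, and was not tested. A count of 0 at this depth allows up to 0.104 CPM in DMSO replicate 1, for counting error only. The gene also shares 1771 bases with LTO1 on the opposite strand, so even these few reads are uncertain.

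Of the G1 kinases Cdk6 rose and Cdk4 was not called. Cdk6 (5:3341485-3531008, + strand) stood at 456, 453, 470.1 and 455 exonic CPM in dTAG-13, against 369, 370.1, 376 and 390.0 exonic CPM in DMSO libraries. It was higher in every treated library, with a log2 fold change of 0.29 ± 0.03 (SE), 1.22-fold, and an adjusted p of 1.57e-07 (edgeR). Cdk4 (10:127063534-127067920, + strand), the kinase with 4 E-boxes in its promoter window, stood at 280.4, 251, 266 and 242 exonic CPM in dTAG-13, against 252, 273, 264 and 255 exonic CPM in DMSO libraries. The DMSO libraries lay inside the range of the dTAG-13 libraries, with a log2 fold change of -0.00 (95% interval -0.09 to 0.08, adjusted p = 0.955, edgeR). Cdk4 shares 641 bases at its 3′ end with Tspan31, which lies on the opposite strand and was not called either (log2 0.09, adjusted p = 0.161, edgeR).

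Among the INK4 genes Cdkn2d rose and Cdkn2c was not called. Cdkn2d (9:21288410-21291407, - strand), which encodes p19INK4d, stood at 35.2, 36.1, 34.5 and 31.4 exonic CPM in dTAG-13, against 18.1, 19.2, 22.7 and 22.4 exonic CPM in DMSO libraries. The lowest treated library was above the highest control library. Its log2 fold change was 0.73 ± 0.07 (SE), 1.66-fold, with an adjusted p of 2.76e-09 (edgeR). Its neighbour Kri1, on the same strand and without overlap, was at 53.2 CPM in dTAG-13 and 54.0 CPM in DMSO libraries (log2 -0.02, adjusted p = 0.798, edgeR). Cdkn2c (4:109660876-109667189, - strand), which encodes p18INK4c, stood at 92.6, 91.2, 90.6 and 86.1 exonic CPM in dTAG-13, against 89.1, 89.9, 84.6 and 86.4 exonic CPM in DMSO libraries. These groups overlapped (log2 0.04, 95% interval -0.04 to 0.12, adjusted p = 0.468, edgeR).

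Neither CIP/KIP inhibitor among the members passed the test. Cdkn1a (17:29090976-29100727, + strand), the gene of p21 and a target of p53, stood at 48.3, 42.5, 45.7 and 42.2 exonic CPM in dTAG-13, against 49.2, 47.5, 46.3 and 47.3 exonic CPM in DMSO libraries. Of the dTAG-13 libraries 3 were below all DMSO libraries and replicate 1 was among them, with a log2 fold change of -0.09 (95% interval -0.19 to 0.01, adjusted p = 0.184, edgeR). Without dTAG-13 replicate 1 the value was -0.13 with an adjusted p of 0.0466 (edgeR). Cdkn1b (6:134920401-134925513, + strand), the gene of p27, stood at 63.4, 62.2, 61.7 and 63.7 exonic CPM in dTAG-13, against 60.0, 61.7, 60.5 and 64.0 exonic CPM in DMSO libraries. The libraries of both groups were mixed in order (log2 0.03, 95% interval -0.06 to 0.11, adjusted p = 0.692, edgeR). Lockd, the long noncoding RNA gene next to Cdkn1b, had a log2 fold change of -0.07 (adjusted p = 0.615, edgeR).

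Rb1 (14:73183673-73325822, - strand), the gene of the retinoblastoma protein on which these kinases act, rose. It stood at 66.8, 60.6, 60.5 and 65.2 exonic CPM in dTAG-13, against 51.0, 51.3, 50.4 and 50.2 exonic CPM in DMSO libraries. The control libraries were close to each other and all treated libraries were above them, with a log2 fold change of 0.32 ± 0.04 (SE), 1.25-fold, and an adjusted p of 1.7e-06 (edgeR). Rb1 shares 24171 bases with Rcbtb2 on the opposite strand, 488 of them exonic in both genes. Rcbtb2 rose too, at 61.3 CPM in dTAG-13 and 49.9 CPM in DMSO libraries (log2 0.29, adjusted p = 1.23e-05, edgeR). Lpar6, which lies within the span of Rb1 on the opposite strand and shares 408 exonic bases with it, was not called (log2 0.13, adjusted p = 0.228, edgeR). Since the strand setting of the counting was not given in the sources used here, whether reads of Rcbtb2 or Lpar6 have a part in the Rb1 value was not tested.

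Levels were set side by side between genes after division by exon length, counted as all bases in any annotated exon. The transcripts present may be shorter, to an extent that differs between genes. Orders, sums, shares and ratios across genes are therefore approximate. Per kilobase of exon, Ccnd3 stood first in both groups, at 149 CPM per kb in dTAG-13 and 277 CPM per kb in DMSO libraries, and Cdk4 second, at 80.1 CPM per kb in dTAG-13 and 80.3 CPM per kb in DMSO libraries. Among the 12845 tested genes with a length, the rank of Ccnd3 was 184 in dTAG-13 and 93 in DMSO libraries. Cdkn2c and Cdk6 followed, at 33.6 and 32.8 CPM per kb in dTAG-13, where their ranges overlapped, and at 32.6 and 26.9 CPM per kb in DMSO libraries, where they did not. Cdkn2d came next in dTAG-13 libraries at 21.8 CPM per kb, above Cdkn1b at 13.8 and Cdkn1a at 12.6, whose ranges overlapped. In DMSO libraries Cdkn2d averaged 13.1 CPM per kb, and its range overlapped those of Cdkn1b at 13.5 and Cdkn1a at 13.4. Lowest came Rb1 and Ccnd2, at 10.5 and 8.94 CPM per kb in dTAG-13 and at 8.43 and 9.13 CPM per kb in DMSO libraries, so their order was the opposite in the 2 groups, and Ccnd1 stayed under 0.0499 CPM per kb throughout.

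**Figure D2:**
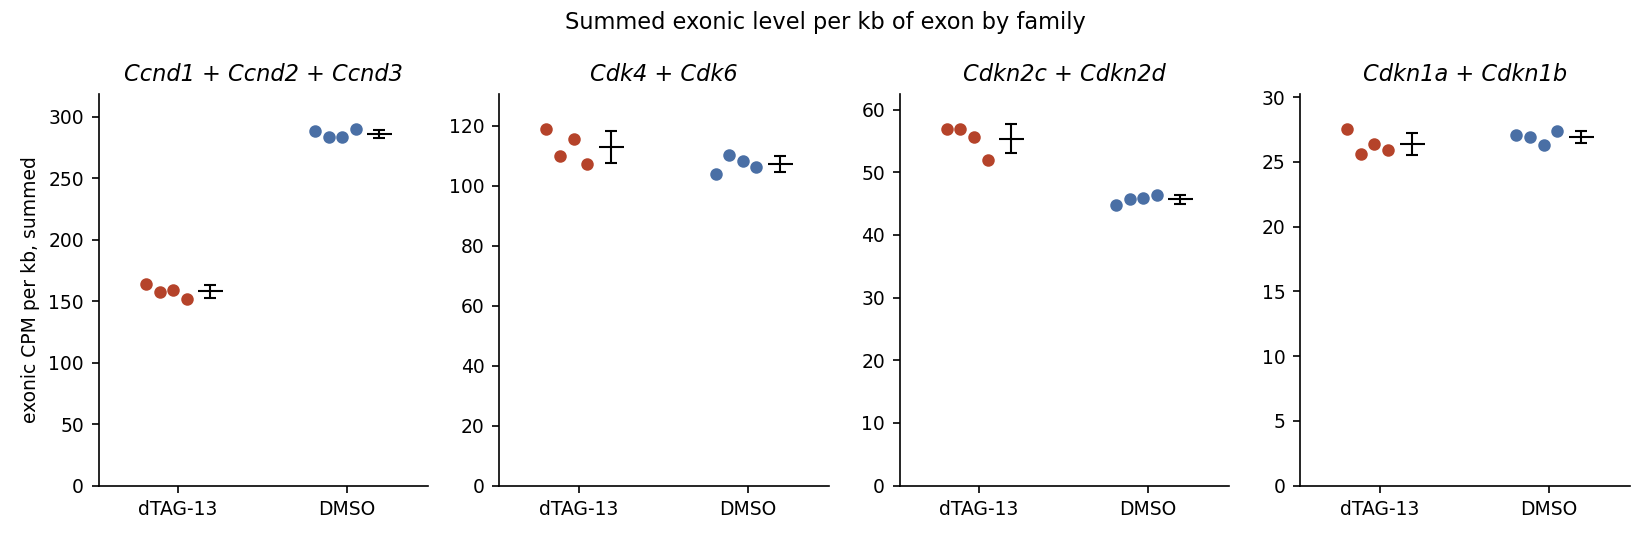
Exonic CPM per kb of exon, summed over the genes named above each panel, in the 4 dTAG-13 libraries (left) and the 4 DMSO libraries (right), with the mean and SD beside the points and linear axes from 0. The D cyclin sum averages 158 in dTAG-13 against 286 in DMSO libraries, the INK4 sum 55.3 against 45.7, and the sums of Cdk4 with Cdk6 and of the CIP/KIP genes overlap between groups.

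Summed by family on this per-kb scale, D cyclin RNA was 158 ± 4.97 in dTAG-13 and 286 ± 3.25 in DMSO libraries (SD, n = 4 each). Ccnd3 made up 94.3 ± 0.168% of it in dTAG-13 and 96.8 ± 0.177% in DMSO libraries, and Ccnd2 the greater part of the rest, at 5.66 ± 0.167% in dTAG-13 and 3.19 ± 0.185% in DMSO libraries. The kinases summed to 113 ± 5.36 in dTAG-13 and 107 ± 2.72 in DMSO libraries, with Cdk6 at 29.1 ± 1.25% of that sum in dTAG-13 and 25.1 ± 0.937% in DMSO libraries. Cdkn2c and Cdkn2d summed to 55.3 ± 2.32 in dTAG-13 and 45.7 ± 0.705 in DMSO libraries, and the share of Cdkn2d in that sum was 39.3 ± 0.804% in dTAG-13 and 28.6 ± 2.81% in DMSO libraries. Cdkn1a and Cdkn1b summed to 26.4 ± 0.847 in dTAG-13 and 26.9 ± 0.437 in DMSO libraries. The ratio of D cyclin RNA to that of the 4 inhibitors was 1.93 ± 0.0190 in dTAG-13 and 3.94 ± 0.0495 in DMSO libraries, and its ratio to the kinases was 1.40 ± 0.0280 in dTAG-13 and 2.67 ± 0.0936 in DMSO libraries. These sums follow from the levels of the single genes and were given no test.

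Reads in introns come mostly from RNA not yet spliced, and they showed the fall of Ccnd3 and the rise of Cdkn2d, but no called change of Cdk6 or Rb1. Of the 9 genes tested in introns 2 (22.2%) were called, beside 16.8% of all 11229 genes tested there. Cdkn2d was higher, as were 8.26% of all tested genes, and Ccnd3 was lower, as were 8.5% of all tested genes. Intronic CPM of Ccnd3 was 724, 740.0, 729 and 772 in dTAG-13, against 1787, 1633, 1723 and 1654 in DMSO libraries. All treated libraries were below all controls, with a log2 fold change of -1.20 ± 0.07 (SE), 2.29-fold lower, and an adjusted p of 3.07e-12 (edgeR). It ranked 132 by size of fall among the 11229 genes.

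Cdkn2d has short introns, and its intronic reads numbered 51, 71, 73 and 56 in dTAG-13, against 30, 29, 30 and 27 in DMSO libraries. In CPM these were 5.28, 5.62, 6.82 and 4.46 in dTAG-13, against 3.40, 3.46, 2.30 and 2.35 in DMSO libraries. The groups did not overlap, as for 19.5% of all genes tested in introns, and the log2 fold change was 0.96 ± 0.27 (SE) with an adjusted p of 0.0127 (edgeR). That call rested on dTAG-13 replicate 3: without it the log2 fold change was 0.85 with an adjusted p of 0.0604 (edgeR).

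For Cdk6, intronic CPM was 680.2, 716, 605 and 758 in dTAG-13, against 656, 676, 681 and 702 in DMSO libraries. The control libraries lay inside the range of the treated ones, and the log2 fold change was 0.02 (95% interval -0.12 to 0.17, adjusted p = 0.885, edgeR). Rb1 introns stood at 177, 177, 152 and 203 CPM in dTAG-13, against 173, 157, 164 and 157 CPM in DMSO libraries. These groups overlapped too (log2 0.12, 95% interval -0.03 to 0.27, adjusted p = 0.295, edgeR). Introns of Rcbtb2, which overlap those of Rb1 on the other strand, were called higher (log2 0.29, adjusted p = 0.00857, edgeR), except without dTAG-13 replicate 4, where the adjusted p was 0.0545.

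The other members gave wide intronic intervals that reached 0. Ccnd2 had a log2 fold change of 0.07 (95% interval -0.19 to 0.34), Cdkn2c of -0.02 (-0.19 to 0.16) and Cdkn1a of -0.21 (-0.46 to 0.03). Cdk4, with at most 51 intronic reads per library, had 0.31 (-0.29 to 0.92), and Cdkn1b, with at most 24, had -0.43 (-1.28 to 0.42). A change as large as the rise of Cdkn2d in exons (log2 0.73) lies inside the Cdk4 interval, so the intronic reads leave room for a change of that size.

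**Figure D3:**
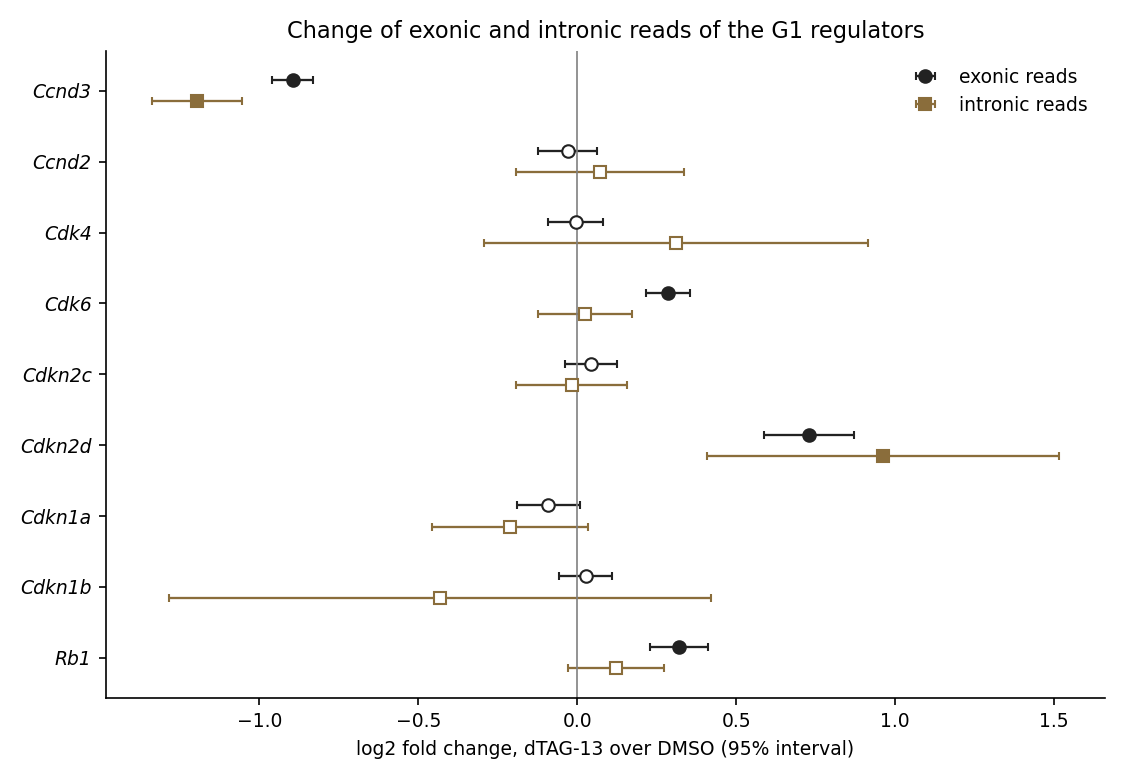
Log2 fold change of dTAG-13 over DMSO in exonic reads (circles) and intronic reads (squares) for the 9 genes tested, with 95% intervals, and filled symbols where the adjusted p is below 0.05 (edgeR). Both classes lie below 0 for Ccnd3 (-0.90 and -1.20) and above 0 for Cdkn2d (0.73 and 0.96), while Cdk6 and Rb1 are filled in exons only.

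A call in exons without one in introns is no test of a difference, so exonic and intronic changes were compared in 1 model with the library as a block. None of the 9 genes passed an adjusted p of 0.05, where 0.319% of all 10026 genes tested did. At an unadjusted p below 0.05 there were 3, Ccnd3, Cdk6 and Rb1, all with the exonic value above the intronic one. The difference was 0.30 on the log2 scale for Ccnd3 (95% interval 0.15 to 0.44, adjusted p = 0.0766, edgeR). It was 0.26 for Cdk6 (95% interval 0.10 to 0.43, adjusted p = 0.254) and 0.20 for Rb1 (95% interval 0.04 to 0.35, adjusted p = 0.45, both edgeR). Tested without a filter on low counts, which changes which genes enter the adjustment and the fitted spread, Ccnd3 (adjusted p = 0.000275, edgeR) and Cdk6 (adjusted p = 0.0256, edgeR) passed. Intronic reads were 14.8 ± 2.56% of the reads over Ccnd3 in dTAG-13 and 17.9 ± 1.34% in DMSO libraries (SD, n = 4 each), and in each group that share was highest in the library with the highest intronic share over all genes.

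Genes whose log2 CPM followed Ccnd3 most closely over the 8 libraries were Pde2a (Pearson r = 0.999), Ucp2 (r = 0.999) and Gfra2 (r = 0.999), among 8007 tested genes with a mean of at least 10 CPM. All 3 were lower in dTAG-13 libraries, with log2 fold changes of -1.27, -1.11 and -4.47, and the shared gap between the groups makes up most of such an r. For Ccnd2, which has no such gap, genes with a close pattern were Tmed5 (r = 0.953) and Psmd14 (r = 0.933). The points are 8 libraries that share their sequencing depth and RNA composition, so these values describe the libraries and carry no p.

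Further genes of the pathway were followed by lists. Each count is read beside the 14.3% of all tested genes called higher and the 14% called lower in exonic reads. The lists were chosen with earlier results of these data known, so these shares give a scale and no independent support. Of the other CDK inhibitors and pocket proteins, 5 of 6 were tested, 1 rose and none fell, with a median log2 fold change of 0.06. The gene not tested was Cdkn1c, a further CIP/KIP gene, with 0 exonic reads over all libraries. The one that rose was Cdkn2b, which encodes p15INK4b, at 9.20 ± 1.49 CPM in dTAG-13 and 5.32 ± 0.905 CPM in DMSO libraries (log2 0.79, adjusted p = 3.58e-05, edgeR), so that 2 of the 4 INK4 genes were higher. Cdkn2a, the gene of p16INK4a and p19ARF, was at 7.54 ± 0.444 CPM in dTAG-13 and 6.36 ± 0.984 CPM in DMSO libraries and was not called (log2 0.24, adjusted p = 0.137, edgeR). Without DMSO replicate 4, 2 genes of this list passed. The pocket protein genes Rbl1 and Rbl2, relatives of Rb1, had log2 fold changes of -0.03 and -0.11 and were not called.

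Genes of E2F and DP factors mostly fell. Of 9 tested, 7 fell and none rose, with a median log2 fold change of -0.25. The number that fell was 6 to 7 with a library left out and 7 to 8 under the other settings. E2f2, an activator E2F, averaged 134 ± 5.56 CPM in dTAG-13 and 246 ± 5.78 CPM in DMSO libraries (log2 -0.87, adjusted p = 3.95e-16, edgeR). E2f8, an atypical repressor, averaged 156 ± 5.33 CPM in dTAG-13 and 230 ± 2.18 CPM in DMSO libraries (log2 -0.56), and Tfdp2, a DP subunit, 56.3 ± 2.79 CPM in dTAG-13 and 72.2 ± 2.53 CPM in DMSO libraries (log2 -0.36). In introns, where 8.5% of all tested genes fell, 5 of 9 fell, E2f2, E2f8, Tfdp2, E2f7 and E2f3, of which E2f7 and E2f3 are named after their values were seen.

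Most genes that E2F factors are known to drive in DNA replication fell as well. Of 22 tested, 19 fell and none rose, with a median log2 fold change of -0.22 and values between -0.40 and -0.04. The number that fell was 17 to 20 with a library left out and 15 to 20 under the other settings. The smallest p belonged to Rrm2, a subunit of ribonucleotide reductase, at 300 ± 21.8 CPM in dTAG-13 and 376 ± 16.3 CPM in DMSO libraries (log2 -0.33), Mcm7, of the replicative helicase (log2 -0.32), and Cdc6, which loads it (log2 -0.40). Mcm2, Prim1 and Tyms had log2 fold changes of -0.11, -0.08 and -0.04 and were not called. In introns 11 of the 22 fell, where 8.5% of all genes tested there did, and none rose, where 8.26% did.

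Of 5 later cyclins and kinases of S phase entry 3 fell and none rose. The number that fell was 3 to 4 with a library left out and 2 to 4 under the other settings. Cdc25a, the phosphatase that activates CDK2, had a log2 fold change of -0.30, Ccne2 of -0.28 and Ccna2 of -0.14, and Ccna2 was not called in whole-gene counts (log2 -0.12, adjusted p = 0.0979, edgeR). Cdk2 itself was at 107 ± 5.39 CPM in dTAG-13 and 105 ± 4.34 CPM in DMSO libraries (log2 0.02, adjusted p = 0.792, edgeR). Of 17 mitotic genes 4 fell and none rose, with a median of -0.05. These 4 were Cdc20 (log2 -0.19), Kif23 (-0.16), Mki67 (-0.11) and, named after its values were seen, Birc5 (-0.13). Of 15 alternative settings Birc5 lost its call in 7, Kif23 in 3, Mki67 in 2 and Cdc20 in 1. The list had 2 genes called lower and 2 called higher without dTAG-13 replicate 1, and 2 called lower without DMSO replicate 3. It had 1 called lower without DMSO replicate 4 or in whole-gene counts.

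**Figure D4:**
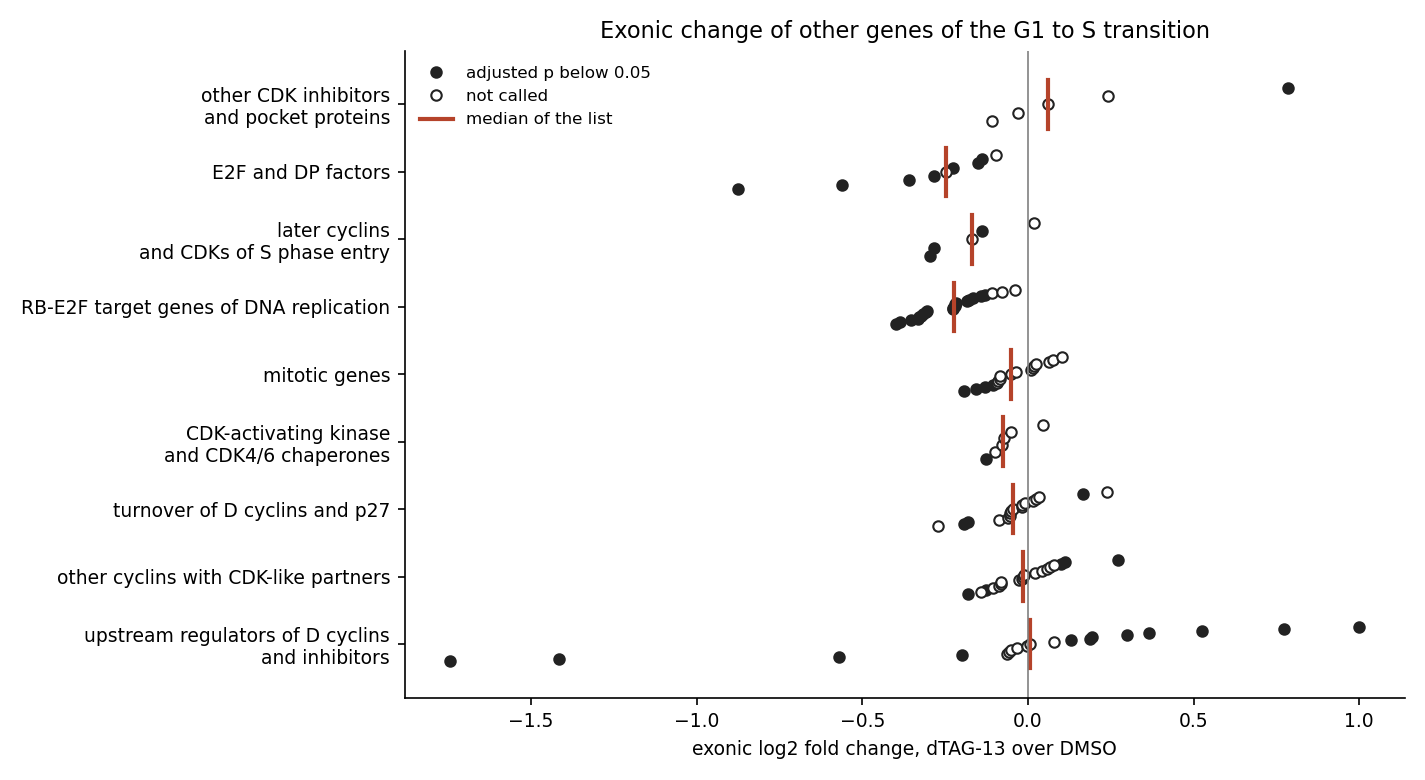
Exonic log2 fold change of dTAG-13 over DMSO for each tested gene of 9 lists, 1 row per list, with filled points at an adjusted p below 0.05 (edgeR), open points for genes not called and a vertical bar at the list's median. The medians of E2F and DP factors (-0.25) and of replication genes (-0.22) lie left of 0, and the regulators upstream of D cyclins spread from -1.74 to 1.00 around a median of 0.01.

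Regulators known to act upstream of D cyclins and CDK inhibitors moved in both directions. Of 19 tested, 8 rose and 4 fell, with a median of 0.01. The number that rose was 6 to 8 with a library left out and 8 under the other settings. The number that fell was 4 throughout. Lef1, a partner of beta-catenin, averaged 118 ± 0.641 CPM in dTAG-13 and 396 ± 5.48 CPM in DMSO libraries (log2 -1.74, adjusted p = 1.99e-23, edgeR). Myc averaged 79.3 ± 3.28 CPM in dTAG-13 and 212 ± 2.88 CPM in DMSO libraries (log2 -1.42), and its paralogue Mycn, which binds the same CACGTG letters, 236 ± 6.85 CPM in dTAG-13 and 138 ± 3.22 CPM in DMSO libraries (log2 0.77). Of the proteins that turn over D cyclins and p27, 17 of 19 were tested, 1 rose and 2 fell. Gsk3b, a kinase that marks D cyclins for degradation, rose (log2 0.17, but adjusted p = 0.102 in whole-gene counts, edgeR). Cks1b (log2 -0.19) and Skp2 (log2 -0.18), the parts of the ligase that recognises p27, fell, and Skp2 was not called without dTAG-13 replicate 2 or 3 or DMSO replicate 1 or 4, with an adjusted p of up to 0.109.

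Of 6 genes of the CDK-activating kinase and the chaperones of CDK4 and CDK6, Hsp90aa1 was the single one called (log2 -0.13). The number called lower in that list was 0 without dTAG-13 replicate 2 or 4 or DMSO replicate 1 and in whole-gene counts, 2 without dTAG-13 replicate 3 or DMSO replicate 3 or 4, and 3 without dTAG-13 replicate 1. Of 19 tested genes of other cyclins and their CDK-like partners 3 rose and 2 fell, with a median of -0.01. Ccni (log2 0.27), an atypical cyclin, and Cdk13 (0.11), a kinase of RNA polymerase, rose, as did Ccng1 (0.10), and Cdk19 (-0.18), of the mediator complex, fell, as did Ccnf (-0.13). Ccng1 and Ccnf are named after their values were seen. The number called lower was 1 without dTAG-13 replicate 1 or 2 or DMSO replicate 2 or 3, and 4 without dTAG-13 replicate 4, and the number called higher was 1 without dTAG-13 replicate 2 and in whole-gene counts. In whole-gene counts Cdk13 (log2 0.03, adjusted p = 0.691), Ccng1 (adjusted p = 0.130) and Ccnf (adjusted p = 0.178, all edgeR) were not called. Cdk13 was also not called without dTAG-13 replicate 2 or 3 or DMSO replicate 2. Of 15 alternative settings, whole-gene counts among them, Ccng1 lost its call in 6 and Ccnf in 5.

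The authors' deposited table calls the same members at an adjusted p below 0.05, 4 of 4 in exons and 2 of 2 in introns, in the same directions. In the authors' deposited table the exonic log2 fold change is -0.89 for Ccnd3, 0.72 for Cdkn2d, 0.28 for Cdk6 and 0.31 for Rb1. For introns the authors' deposited table gives -1.19 for Ccnd3 and 0.79 for Cdkn2d.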

How the data were processed

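Stranded libraries of RNA cleared of ribosomal RNA, 4 with dTAG-13 and 4 with DMSO, were sequenced, as the labels' protocols state. The treatment labels gave the groups, and the labels call the libraries of a group biological replicates, without saying how they were grown apart, so p-values measure the spread between these libraries. Replicates were no copies of each other: chi-square over degrees of freedom was between 4.76 and 13.4.

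Raw read counts of each gene's exons, and of the gene as a whole, were deposited, as the design text of the series states. The authors' deposited table of 25948 genes gives, per the file headers, log2 fold changes of 6 h over 0 h libraries, their standard errors, and p-values before and after adjustment, and 2 further columns of means were not used. Per the submitters' processing notes the tools include featureCounts (Subread 2.0.0), DESeq2, deepTools 3.3.2, SAMtools 1.10 and STAR 2.7.4a, with GRCm38.p4 and mm10 as builds. The sources used here do not give the role of each tool or the strand setting of the counting. They also do not give the annotation release or any shrinkage of fold changes. Whether the counts of overlapping genes share reads was not tested. Gm42435, opposite Cdk6 over 1448 bases without exon overlap, had 1 exonic read over all libraries, and Lpar6, opposite Rb1, had 4131.

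Intronic counts were the whole-gene count minus the exon count. Counts were tested in R 4.3.3 with edgeR 4.0.16 (quasi-likelihood F test, TMM, filterByExpr with minimum count 10 and minimum total 15, treatment as the only term, Benjamini-Hochberg over all tested genes, threshold 0.05). Standard errors are the fitted log2 fold change divided by the square root of F. CPM values use TMM-scaled library sizes, so a change in total RNA per cell is not seen. Exonic and intronic changes were compared by the interaction of read class with treatment, with the library as a block. The fits were also run on simulated counts with known changes. Exonic and intronic counts were drawn there independently, without variation shared within a library. That run therefore does not show how the comparison of exonic with intronic change handles such variation. DESeq2 1.42.0 was run as an alternative, and the other alternatives are named with their effect in the closing section. Depth was 28982316 to 38999496 exonic reads per library and gave a median standard error of 0.07 (log2) in exonic and 0.11 in intronic counts. Intervals are 95%, and floors of 3 reads cover counting error only.

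The members and gene lists were chosen with earlier results of these data known. All 10 members are named. Of each other list up to 3 called genes with the smallest exonic p are named, besides genes that overlap or neighbour a member and the 3 genes most correlated with each tested D cyclin, of which 1 is not reported here. Cdkn1c, Cdkn2a, Rbl1, Rbl2, Cdk2, Mcm2, Prim1 and Tyms fall outside this rule and were chosen after their values were seen. Names came from the authors' table for 19321 of the 47937 IDs and from a reference table for 27914. Coordinates and exon lengths are from GENCODE vM21 on GRCm38, where 39192 IDs had the same version and those of Cdkn1a and Cdkn2d had another. Promoter windows came from RefSeq (GRCm38.p6).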

Additional observations from a re-analysis of the deposited data

Results flagged for a closer look

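Exonic and intronic CPM of the members were looked through for a library far from the other 3 of its group, and 2 of 36 groups held one, where chance gives about 1 in 20. Ccnd2 stood at 93.8 exonic CPM in DMSO replicate 1, and the other DMSO libraries lay between 82.6 and 84.0. Cdk6 stood at 470 exonic CPM in dTAG-13 replicate 3, and the other dTAG-13 libraries lay between 453 and 456. Leaving out either library changed no call of its gene.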

How the results depend on the processing

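The 4 exonic calls among the members (Ccnd3, Cdkn2d, Cdk6 and Rb1) held under size factors of DESeq2, no filter, a filter of 1 CPM in 4 libraries, DESeq2 itself, whole-gene counts, library sizes without 2 genes overlapping ribosomal RNA, and without each library. No called value changed sign. Of 135 exonic values of single members, 134 kept their side of the threshold, and Cdkn1a passed without dTAG-13 replicate 1. In introns 116 of 117 kept it, with 1 to 2 members called when a library was left out and the 1 without dTAG-13 replicate 3. For exonic minus intronic change, 106 of 108 kept it, and with no filter 2 members (0 with the filter) and 111 genes (32 with the filter) were called. Leaving out a library gave 11 to 27 genes, with 15 without dTAG-13 replicate 2, 13 without dTAG-13 replicate 3, 14 without DMSO replicate 1, 11 without DMSO replicate 3 and 16 without DMSO replicate 4. The cause was not tested, beyond fewer libraries in each such fit. Called genes numbered between 3259 and 3753 in exons under all alternatives, 3575 of them with DESeq2.

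The labels state no pairing of the libraries by replicate number. Correlations of same-numbered libraries' deviations lay between -0.0237 and 0.0453 in exons and between -0.00456 and 0.0584 in introns. In each class 2 of 4 dTAG-13 libraries correlated best with their own number. With 4 libraries per group, these values cannot decide whether the numbers pair the libraries. With the replicate block 3753 exonic, 1937 intronic and 41 difference genes were called, against 3649, 1881 and 32 without it. No member's call changed. Depth limits Ccnd1 and the introns of Cdk4, Cdkn1b and Cdkn2d.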
